A study of Mus musculus with 4 samples.

Results

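The DNA replication genes described here are 41 genes of the machinery that copies the genome in S phase, from the origin recognition complex to nucleotide supply. They were taken by name: every probe set of the array whose annotated gene symbol was 1 of the 41 names. The annotation held 40 of them on 92 probe sets, of 18193 named genes and 45037 probe sets in all; Chaf1a had no probe set under its symbol. Of the 92 probe sets, 78 were past a filter on dim probe sets (mean log2 intensity over the 4 arrays above 7.23, the median of all probe sets). Each of the 40 genes kept at least 1 probe set, and its brightest single-gene probe set stands for it below unless another is named.

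The study asked whether adult blood stem cells need hedgehog signalling, which requires the transmembrane protein Smoothened, encoded by Smo. Expression was measured on Affymetrix arrays in LSK cells (Lin-ckit+Sca1+, the bone marrow fraction with the stem cells and multipotent progenitors) and in MP cells (Lin-ckit+Sca1-, the myeloid progenitors). WT mice were Smo flox/flox, Mx1Cre- and Smo-deficient mice Smo flox/flox, Mx1Cre+; the interferon-responsive Mx1 promoter drives the recombinase in blood cells and also in other cells of the mouse. All mice, WT included, received polyI:C at 20 ug/g by 3 intraperitoneal injections, and bone marrow was collected after a further 6 weeks. Each genotype was 1 pool of marrow from 4 mice of both sexes, from which LSK and MP were both sorted, so there was 1 array for each of the 4 groups and no replicate of any. The labels give the strain as C57BL/6x129 for WT LSK and with the endings x130, x131 and x132 for Smo-deficient LSK, WT MP and Smo-deficient MP, although LSK and MP of each genotype were sorted from 1 pool. Ages are not given in the sources used here. Throughout, values for the 4 arrays are log2 intensities in the order LSK of WT, LSK of Smo-deficient, MP of WT, MP of Smo-deficient, and differences are on the log2 scale.

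Replication starts where the origin recognition complex, with Cdc6 and Cdt1, loads the ring-shaped Mcm2 to Mcm7 helicase onto DNA during G1. At the start of S phase kinases and Mcm10, Cdc45 and the GINS complex turn the loaded rings into active helicases, and primase, polymerases, the sliding clamp and its loader then build the new strands. Many of these genes are transcribed by E2F factors late in G1, so their transcripts are commonly used as a measure of how many cells of a population are cycling. In mouse marrow, myeloid progenitors divide often, and long-term stem cells, a small part of LSK, are mostly quiescent.

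Before the replication genes were read, the labels were checked. Smo itself had 10.81, 6.13, 10.40 and 6.36 on 1 of its probe sets and 10.02, 6.96, 9.72 and 7.94 on another, so both arrays labelled Smo-deficient were low. All 6 measured LSK markers of 8 were higher in LSK than in MP in both pools, with median differences of 2.11 in WT and 2.39 in Smo-deficient; the marker that names the gate, Ly6a (Sca-1), had no probe set under its symbol. All 6 myeloid progenitor markers were higher in MP in both pools, with medians of -1.19 and -1.10. The arrays had median intensities of 149.1 to 150.3 and upper quartiles from 543.1 (Smo-deficient MP) to 609.7 (Smo-deficient LSK), so bright probe sets are not on quite the same footing on the 4 arrays. The 3' minus 5' signal of the Actb control probe sets was 1.55 and 1.53 in LSK and 1.34 and 1.31 in MP (log2, WT then Smo-deficient). For Gapdh it was 1.57, 1.78, 1.59 and 1.60 on the 4 arrays, highest in Smo-deficient LSK. Actb thus differed between the populations and Gapdh between the LSK arrays. The part of RNA quality was not tested, either in the LSK genotype differences or in LSK minus MP.

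The replication genes were lower in the Smo-deficient pool than in the WT pool, by small amounts, in both populations. In LSK 37 of the 40 genes were below 0 (Smo-deficient minus WT, log2), where 53.2% of all 11904 genes past the filter were. The median over the genes was -0.18, against -0.02 over all genes. In MP 37 of 40 were also below 0, where 59.7% of all genes were, with a median of -0.22 against -0.05. The differences were narrow: from -0.48 (Pole) to 0.10 (Rfc3) in LSK and from -0.57 (Pola1) to 0.06 (Ccne2) in MP. None of the 40 genes reached 1.5-fold in either population. Over all genes, 0.924% were at least that much lower and 3.14% higher in LSK, and 2.24% and 2.56% in MP. Each genotype was 1 pool, so no p-value can be given and genotype cannot be told apart from any other difference between the pools.

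The replication genes are brighter than most, with a median level of 12.13 against 9.72 over all genes past the filter, and part of the lowering was shared by other bright genes. Among the 2431 genes whose level lay between the 25th and 75th percentile of the members (11.09 to 13.09), 57.8% were below 0 in LSK and 71.2% in MP, with medians of -0.04 and -0.14. Centred on those genes, the median of the replication genes was -0.14 in LSK, with 36 of 40 below 0, and -0.08 in MP, with 29 of 40. Quantile normalization of the deposited values gave -0.17 and -0.11. By a smaller rule of size, a difference of at least 0.322, 4 genes were lower in LSK, where the background was 5.84%, and 11 in MP, where it was 13.0%. Among the genes of the members' level range the background was 7.45% in LSK and 19.0% in MP, nearer to the members' shares. None of the 40 was higher by that much, against 10.3% of all genes in LSK and 8.40% in MP. The 4 in LSK were Pole, Rrm1, Mcm10 and Pola2, with Chaf1b just short of the rule. Mcm10, Pola2 and Pole passed it in MP too, with Orc1, Orc2, Orc6, Cdc6, Pola1, Rfc5, Rrm2 and Chaf1b.

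**Figure D1:**
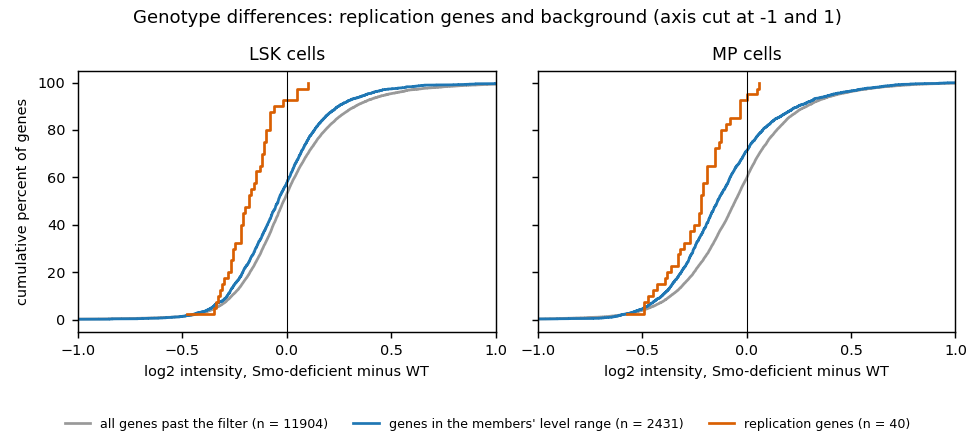
Cumulative percent of genes (y axis) by their Smo-deficient minus WT difference in log2 intensity (x axis, cut at -1 and 1), in LSK (left) and MP (right). The curve of the 40 replication genes lies for most of its length to the left of that of all 11904 genes and of that of the 2431 genes in the members' level range, with 37 of 40 below 0 in both panels; it ends at 0.10 in LSK and at 0.06 in MP.

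Most of the genes were low in both populations. Of the 40, 35 were lower in both LSK and MP of the Smo-deficient pool and 1, Ccne2, was higher in both, while 39.4% of all genes past the filter were lower in both. The lowest of the 4 arrays was a Smo-deficient one for 38 of the 40 genes: Smo-deficient LSK for 20 and Smo-deficient MP for 18. Over all genes those arrays were lowest for 32.9% and 28.8%. The highest array was WT LSK for 18 genes and WT MP for 19, against 17.8% and 34.8% of all genes. Because each pool gave both an LSK and an MP array, this is 1 pair of pools seen on 2 pairs of arrays, not a repeat of the genotype.

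**Figure D2:**
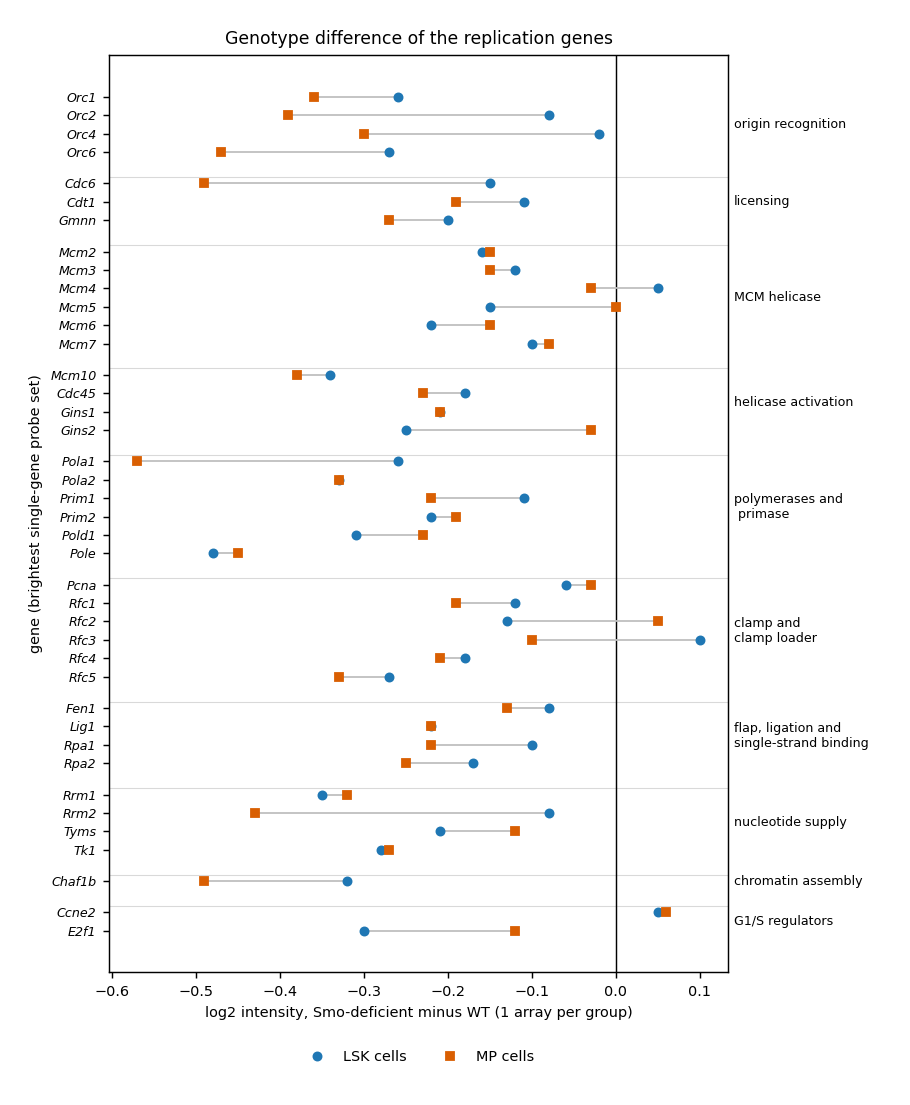
Smo-deficient minus WT difference in log2 intensity (x axis) of the 40 measured replication genes (y axis, grouped by role), in LSK (circles) and MP (squares), with 1 array per group and therefore no error bars. Nearly all points lie left of 0; Pole is lowest in LSK at -0.48 and Pola1 lowest in MP at -0.57.

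In these bulk samples fewer cycling cells and less replication RNA per cell cannot be told apart. Other lists bear on the makeup of the sorted cells and moved with genotype too. Of the 6 measured LSK markers, 5 were higher in Smo-deficient LSK (median 0.54; Flt3, a receptor of multipotent progenitors, at 1.21 and Procr, a stem cell marker, at 1.11, with Slamf1 at -0.51). In MP 5 of the 6 were higher as well (median 0.34), and their summed intensities on the 4 arrays were 18315, 27394, 6177 and 9415. All 7 neutrophil markers were higher in Smo-deficient LSK (median 0.79) and in Smo-deficient MP (0.19), with summed intensities of 73706, 116926, 89288 and 101563 on the 4 arrays. All 5 macrophage markers were higher in Smo-deficient LSK (median 0.67) and 3 of 5 in MP (0.23), with sums of 1731, 2888, 2299 and 2580 in the same order. Of 6 measured B cell markers, 6 and 5 were higher (0.67 and 0.31), with sums of 1698, 2608, 1572 and 2003; Ebf1 was below the filter. Of 7 measured markers of the erythroid lineage, whose progenitors lie in the MP gate, 2 were higher in Smo-deficient LSK and 1 in MP (medians -0.69 and -0.54), with sums of 26041, 13359, 68661 and 49999; Hba-a1 was below the filter. None of the 5 megakaryocyte markers was higher in Smo-deficient LSK (median -1.01) and 2 of 5 were in MP (-0.13), with sums of 25087, 14685, 11863 and 11374. The 6 myeloid progenitor markers were all higher in Smo-deficient LSK and MP (0.63 and 0.65), with sums of 43625, 59478, 78249 and 109914. Of 4 measured T and NK cell markers, 2 were higher in either population (medians 0.03 and -0.01), with sums of 5448, 5797, 4503 and 5865. Cd3g was below the filter. The sums are mostly Nkg7, at 12.21 in WT LSK, where Cd3e was at 8.09 and Cd8a at 8.64. Of 5 mast cell and basophil markers, 3 and 4 were higher (0.23 and 0.34), with sums of 4406, 5888, 7756 and 10477. Fcer1a was below the filter. The part of these cell types in the lower replication genes was not tested.

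Between the populations the replication genes had no common direction. In the WT pool LSK minus MP had a median of -0.05 over the 40 genes, with 22 of 40 below 0 against 52.2% of all genes. In the Smo-deficient pool the median was -0.03, with 21 of 40 below 0 against 45.6%. Tested over both pools with limma, with the pool as a block, 4 of the 40 genes fell in LSK at an adjusted p under 0.05 (10%, against 7.54% of all genes), namely Cdc6, Orc1, Mcm10 and Fen1. None rose, while 16.4% of all genes did. Of the 2431 genes in the members' level range, 292 were lower and 459 higher in LSK by the same test, so the members had no excess of lower genes over these. At an unadjusted p under 0.05 limma had 10 lower and 3 higher, where 14.2% and 23.5% of all genes were. Counted by probe set, 10 of the 78 past the filter were lower in LSK (7.19% of all probe sets) and 1 was higher (15.1%). The 2 pairs leave 1 residual degree of freedom and the pools differ in genotype, so the p-values carry nothing on how mice vary. Without the pool as a block 0 of the 40 genes passed. That fit called 918 probe sets of the whole array higher in LSK and 140 lower, against 3395 and 1618 with the block.

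**Figure D3:**
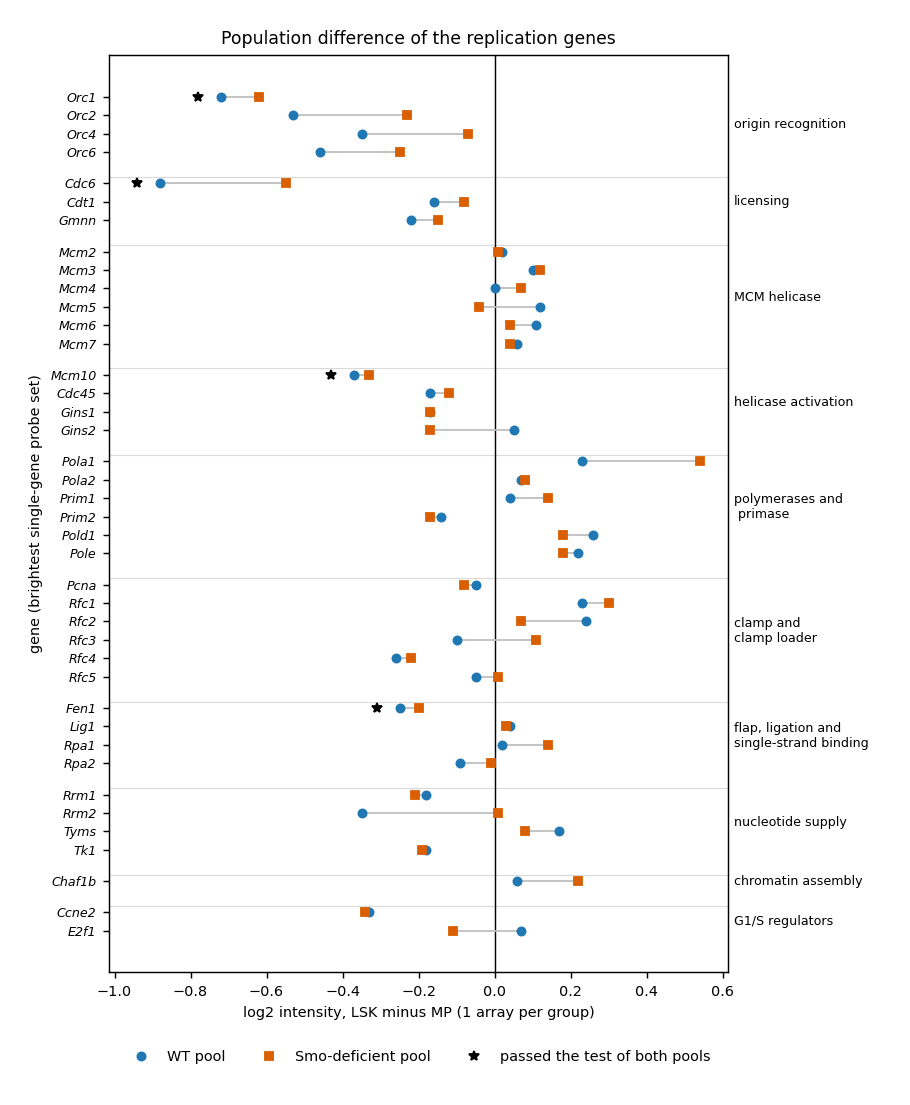
LSK minus MP difference in log2 intensity (x axis) of the 40 replication genes (y axis, grouped by role) in the WT pool (circles) and the Smo-deficient pool (squares), with 1 array per group; stars mark the 4 genes that passed the test over both pools. The origin recognition and licensing genes lie left of 0 in both pools, the MCM helicase genes lie within 0.12 of 0, and 5 of 6 polymerase and primase genes lie right of 0.

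Some roles lay on 1 side of 0 and others on both. On the brightest probe sets and the mean of both pools, all origin recognition, licensing and helicase activation genes were below 0. The clamp and its loader had 3 genes below 0 and 3 above. For flap, ligation and single-strand binding these were 2 and 2, and for nucleotide supply 3 and 1. The 4 origin recognition genes, whose products mark where replication may start, were all higher in MP, with a median LSK minus MP of -0.50 (WT) and -0.24 (Smo-deficient). Orc1, the subunit whose level follows the cell cycle, had linear intensities of 610.8, 510.5, 1003.3 and 784.4 on the 4 arrays. Both MP arrays were above both LSK arrays, and the mean log2 difference was -0.67 ± 0.11 (SE from limma, 2 pools), adjusted p = 0.00838. On the other Orc1 probe set past the filter, 1443172_at, the values were 8.79, 9.02, 8.83 and 8.72, with a mean difference of 0.13, so the call rests on 1422663_at. Orc4, also a subunit, had 9.45, 9.43, 9.80 and 9.50 (mean difference -0.21, adjusted p = 0.269), and only the WT MP array stood apart. Its other probe sets past the filter differed in sign, by 0.27 on 1423336_at and 0.16 on 1423337_at. Orc6 differed by -0.46 in the WT pool and by -0.25 in the other, with an adjusted p of 0.0583.

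Orc2 shows how much the choice of probe set decides. Its brightest probe set, 1418225_at, had 10.40, 10.32, 10.93 and 10.55, and its mean difference of -0.38 did not pass (adjusted p = 0.0688). Probe set 1418226_at had 9.33, 9.04, 10.41 and 9.81, the groups well apart, with a mean difference of -0.93 ± 0.13 and an adjusted p of 0.00396 in limma. The dimmest, 1418227_at, had 7.29, 7.16, 8.19 and 7.43 (mean difference -0.59, adjusted p = 0.0444), and here WT MP alone stood high. All 3 were lower in LSK in both pools and lower in Smo-deficient MP than in WT MP, at -0.39, -0.60 and -0.76.

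Of the 3 licensing genes, Cdc6, the ATPase that helps load the helicase, had the largest population difference of the 40. Its values were 11.61, 11.46, 12.50 and 12.01. The MP arrays were both higher, and LSK minus MP was -0.88 for WT and -0.55 for the Smo-deficient pool (mean -0.72 ± 0.11, adjusted p = 0.00547 in limma). The smaller difference in the Smo-deficient pool goes with a genotype difference of -0.49 in MP and -0.15 in LSK; whether these differ could not be tested with 1 array per group. Cdt1, its partner in loading, had 13.71, 13.60, 13.87 and 13.68 in the same order, a mean difference of -0.12 that did not pass. Geminin (Gmnn), which binds Cdt1 and blocks a further round of licensing, was lower by a similar amount at -0.19 (adjusted p = 0.0863).

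The 6 genes of the MCM helicase lay close together, with mean LSK minus MP from 0.01 (Mcm2) to 0.11 (Mcm3), and 0 of 6 passed on the probe set that stands for each. Mcm2 had 13.36, 13.20, 13.34 and 13.19. LSK and MP were within 0.02 of each other in each genotype, and the Smo-deficient arrays were lower by 0.16 and 0.15. Mcm3 had 13.46, 13.33, 13.35 and 13.21, again with both Smo-deficient arrays the lower of their pair. Mcm5 had 14.11, 13.95, 13.99 and 13.99, so WT LSK stood highest and the other arrays were level. On the brightest probe sets, 5 of the 6 genes were lower in Smo-deficient LSK, by 0.10 (Mcm7) to 0.22 (Mcm6), and Mcm4 was higher by 0.05. Other probe sets of Mcm4 and Mcm6 differed from this and are given below.

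The MCM genes have several probe sets, and some of the dimmer ones gave other answers. For Mcm3, probe set 1426653_at had 11.54, 11.13, 10.99 and 10.45, a mean LSK minus MP of 0.61 ± 0.10 that passed in limma (adjusted p = 0.00837). The other 4 probe sets of Mcm3 past the filter had mean differences from -0.12 to 0.11. For Mcm5, 1415945_at had 12.31, 12.01, 12.63 and 12.25, lower in LSK at -0.28 ± 0.08 (limma, adjusted p = 0.0467) and lower in Smo-deficient MP at -0.38, where the brighter probe set had 0.00. Its dimmest, 1459658_at, went the other way by genotype, at 0.25 in LSK and 0.43 in MP. By genotype (LSK, then MP), Mcm4 had -0.09 and -0.12 on 1416214_at, where its brightest probe set had 0.05 and -0.03. Mcm6 had -0.03 and 0.08 on 1438852_x_at, against -0.22 and -0.15 on its brightest. Mcm2 was lower on both of its probe sets, with -0.29 and -0.31 on the dimmer, 1448777_at. Which probe sets read which transcripts was not analysed here.

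**Figure D4:**
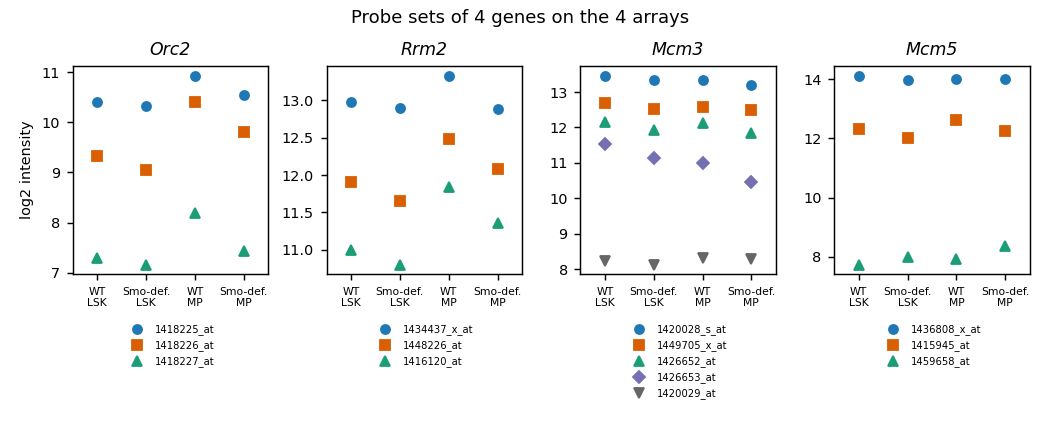
Log2 intensity (y axis, a different range in each panel) of each probe set past the filter of Orc2, Rrm2, Mcm3 and Mcm5 on the 4 arrays (x axis); 1 point per array and probe set. For Orc2 and Rrm2 the WT MP array is the highest on every probe set, whereas 1 of 5 probe sets of Mcm3 (1426653_at) falls from left to right at every step.

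The 4 genes that turn the loaded ring into a working helicase had LSK minus MP below 0 on average, and 1 passed. Mcm10, needed for the start of unwinding, had 11.27, 10.93, 11.63 and 11.25. Its population difference was -0.37 and -0.33 in the 2 pools (mean -0.35 ± 0.10, adjusted p = 0.0464 in limma), and its genotype difference was of the same size, -0.34 in LSK and -0.38 in MP. Smo-deficient MP and WT LSK therefore had nearly the same level. The call of Mcm10 was lost with each array centred on its median (adjusted p = 0.0544), and the range over its alternatives was 0.0195 to 0.344. Gins2, a GINS subunit, had 11.16, 10.91, 11.11 and 11.08 (mean difference -0.06), with Smo-deficient LSK alone below the rest. Cdc45, the GINS partner in the active helicase, and Gins1 differed by -0.14 and -0.17 and did not pass. The other Cdc45 probe set past the filter, 1457838_at, had 0.13, with genotype differences of -0.11 in LSK and 0.14 in MP. That of Gins1, 1457981_x_at, had -0.30.

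Of the 6 polymerase and primase genes, 5 had LSK minus MP above 0, and 0 passed. All 6 were lower in the Smo-deficient pool in both populations, with a median of -0.28 in LSK and -0.28 in MP. Pole, the catalytic subunit of the leading-strand polymerase epsilon, had 11.57, 11.09, 11.35 and 10.91. Both Smo-deficient arrays were below both WT arrays, by 0.48 in LSK (1.40-fold) and 0.45 in MP. Pola1, the catalytic subunit of the polymerase that extends the primer, had 11.73, 11.47, 11.49 and 10.92, with Smo-deficient MP standing low. Its LSK minus MP had the highest mean of the 40 genes (0.39 ± 0.11), with 0.23 in the WT pool, where Pold1 was higher at 0.26, and 0.54 in the other. It narrowly missed the threshold (adjusted p = 0.0511 in limma, and 0.0388 after quantile normalization). Prim2, the large primase subunit, had 12.23, 12.01, 12.37 and 12.18 and was the 1 gene of this group lower in LSK (-0.16). Its dimmest probe set, 1445474_at, stayed within 0.03 on all 4 arrays.

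The sliding clamp and its loader had a median genotype difference over the 6 genes of -0.12 in LSK and -0.14 in MP. Pcna, the clamp, differed by -0.06 and -0.03, at a level of 14.37 in WT LSK, whereas the loader subunit Rfc5 was at -0.27 and -0.33. Rfc1, the large loader subunit, had 11.76, 11.64, 11.53 and 11.34, higher in LSK by 0.26 without passing (adjusted p = 0.0914). On 1451920_a_at Rfc1 was higher in Smo-deficient LSK by 0.31, unlike its other probe sets. In Smo-deficient MP it was lower at -0.39, as the others were (-0.19 and -0.07). Rfc4, a small subunit, had linear intensities of 3962, 3509, 4736 and 4089, lower in LSK at -0.24 on the log2 scale (adjusted p = 0.0879), with WT MP highest. Its genotype differences were -0.18 in LSK and -0.21 in MP, and -0.35 and -0.50 on its other probe set, 1438161_s_at.

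Of the genes that finish and protect the new strand, Fen1, the nuclease that trims the flaps between Okazaki fragments, fell in LSK. It had 13.91, 13.84, 14.16 and 14.04. Both MP arrays were higher, by a small and even amount (mean -0.22 ± 0.05, adjusted p = 0.0173 in limma), and the dimmer probe set 1421731_a_at had -0.33 (adjusted p = 0.0496). Rpa1, a subunit of the complex that coats single strands, had 14.14, 14.04, 14.12 and 13.90 (mean difference 0.08, not passing). Lig1, which seals the fragments, was level between populations (0.04) and lower at -0.22 in both Smo-deficient populations.

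Nucleotide supply was lower in the Smo-deficient pool for all 4 genes in both populations. Rrm1, the large subunit of ribonucleotide reductase, had 12.89, 12.55, 13.07 and 12.75. The genotype difference was -0.35 in LSK and -0.32 in MP, each larger than the difference between the populations (-0.19, adjusted p = 0.0881). Rrm2, the subunit that is made in S phase, had 12.98, 12.90, 13.33 and 12.89 on its brightest probe set, with WT MP alone standing high, and did not pass (-0.17, adjusted p = 0.237). Its other probe sets did: 1448226_at had 11.90, 11.65, 12.48 and 12.08 (-0.51 ± 0.09, limma adjusted p = 0.00874), and 1416120_at had 10.99, 10.80, 11.84 and 11.36 (-0.70 ± 0.11, adjusted p = 0.0067). On these both MP arrays were above both LSK arrays. Tk1, the salvage enzyme thymidine kinase, was lower at -0.28 and -0.27 in the Smo-deficient populations. Tyms, which makes thymidylate, had 8.13, 7.92, 7.95 and 7.84 on its only single-gene probe set past the filter; a brighter one shared with the pseudogene Tyms-ps had 11.90, 11.85, 11.73 and 11.77, nearly level by genotype.

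Chaf1b, a subunit of the factor that places histones on new DNA, had 11.26, 10.94, 11.20 and 10.71. The WT arrays were level with each other and both Smo-deficient arrays were below them, by 0.32 and 0.49. Of the G1/S regulators, cyclin E2 (Ccne2), which activates Cdk2 at the start of S phase, had 9.74, 9.79, 10.07 and 10.13. It was higher in MP by the same amount in both pools (mean LSK minus MP -0.34, adjusted p = 0.0753) and did not share the lower level of the Smo-deficient pool. E2f1, the transcription factor, had 10.18, 9.88, 10.11 and 9.99, lower at -0.30 in LSK and -0.12 in MP. Its other probe set past the filter, 1417878_at, had -0.13 and 0.09.

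As a description of sequence, the promoters of the genes were searched for the E2F motif, written as TTTCCCGC, TTTCGCGC, TTTGCCGC or TTTGGCGC on either strand. Promoters were RefSeq windows of GRCm38.p6 from 250 bases before to 50 after a gene's start, and 33 of the 41 genes had 1 or more. A match was present for 11 of the 33 genes (33.3%), against 4.64% of the 9645 genes past the filter and 2.6% of all 27025 genes in the table. The 11 were Orc1, Cdc6, Cdt1, Mcm3, Mcm5, Mcm6, Mcm7, Pola1, Pold1, Rfc3 and Lig1. The CCAAT box, a common promoter element searched as CCAAT on either strand, was present for 21 of 33 (63.6%), against 42.5%. A match is a string of letters and not a shown binding site, and the absence of a match does not show the absence of a site. Rrm1 and Mcm10, without a match, were low in the Smo-deficient pool, and so were Cdc6 and Pola1, with a match. By genotype 37 of the 40 measured genes were below 0 in each population. Genes with and without a match were not compared. The part of E2F in the lower level was not tested. Below are the 250 bases before the start for the 4 genes with the largest size of LSK minus MP among those with a match there, 5′ to 3′ along the gene, with E2F matches in capitals. Cdc6 lies on the plus strand at chr11:98907901-98908150 and Orc1 on the plus strand at chr4:108579204-108579453. Pola1 lies on the minus strand at chrX:93632156-93632405 and Mcm6 on the minus strand at chr1:128359706-128359955.
Cdc6: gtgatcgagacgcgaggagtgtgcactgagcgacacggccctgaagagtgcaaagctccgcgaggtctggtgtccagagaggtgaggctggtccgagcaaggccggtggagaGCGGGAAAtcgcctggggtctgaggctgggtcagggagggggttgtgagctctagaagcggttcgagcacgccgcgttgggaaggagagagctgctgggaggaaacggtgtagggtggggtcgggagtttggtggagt
Orc1: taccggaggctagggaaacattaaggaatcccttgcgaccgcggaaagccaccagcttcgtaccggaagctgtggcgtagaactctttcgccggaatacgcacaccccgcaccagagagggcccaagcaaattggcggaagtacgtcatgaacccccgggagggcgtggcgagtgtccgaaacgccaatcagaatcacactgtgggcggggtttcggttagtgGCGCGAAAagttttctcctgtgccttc
Pola1: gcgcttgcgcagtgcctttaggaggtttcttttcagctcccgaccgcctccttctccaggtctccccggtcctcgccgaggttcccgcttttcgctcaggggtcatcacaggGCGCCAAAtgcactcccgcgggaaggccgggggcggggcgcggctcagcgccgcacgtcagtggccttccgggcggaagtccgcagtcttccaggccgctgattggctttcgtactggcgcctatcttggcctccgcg
Mcm6: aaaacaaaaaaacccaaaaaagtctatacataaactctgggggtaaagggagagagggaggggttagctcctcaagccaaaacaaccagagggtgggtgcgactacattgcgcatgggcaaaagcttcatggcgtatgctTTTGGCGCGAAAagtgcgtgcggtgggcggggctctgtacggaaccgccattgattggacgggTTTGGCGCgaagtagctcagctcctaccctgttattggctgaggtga
Each of Cdc6, Orc1 and Pola1 had 1 match, starting 138, 27 and 138 bases before the start. Mcm6 had 3, of which 2 on opposite strands share bases in the first capital run. Between populations these genes did not go 1 way: Cdc6 and Orc1 were lower in LSK, Pola1 was at 0.39 and Mcm6 at 0.07. By genotype all 4 were lower in the Smo-deficient pool on their brightest probe sets, with Cdc6 at -0.15 in LSK and -0.49 in MP, Orc1 at -0.26 and -0.36, Pola1 at -0.26 and -0.57, and Mcm6 at -0.22 and -0.15. Other probe sets past the filter differed from this: Mcm6 had -0.03 and 0.08 on 1438852_x_at, and Orc1 had 0.23 and -0.11 on 1443172_at.

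Other replication genes, not among the 41, had a like pattern. Of 50 measured genes of that list, 39 were lower in Smo-deficient LSK and 46 in Smo-deficient MP, with medians of -0.17 and -0.26, beside -0.18 and -0.22 for the members. Between populations 7 of the 50 fell in LSK and 5 rose in the limma test, where 7.54% and 16.4% of all genes did. Ccne1, the other cyclin E, had the largest difference (-1.51 ± 0.10, adjusted p = 0.00037), with 11.19, 10.57, 12.57 and 12.22 on the 4 arrays. Orc5, another origin subunit, had 10.20, 9.93, 11.51 and 10.90 (-1.14 ± 0.12, adjusted p = 0.00172). E2f7, a repressor of E2F targets, rose in LSK (0.78 ± 0.11, adjusted p = 0.00477). Mitosis genes were lower in the Smo-deficient pool for 19 of 19 in LSK and 19 of 19 in MP, with medians of -0.28 and -0.38, and between populations 2 of the 19 fell and 2 rose, beside the same shares of all genes. Of the 7 genes of quiescence and CDK inhibition, 6 were past the filter and Cdkn1c was below it. In Smo-deficient LSK all 7 were higher, and so all 6 past the filter, where 5575 of all 11904 genes past the filter were. The median of the 7 was 0.32, which is the value of Cdkn1c, from 0.02 (Cdkn1a) to 0.53 (Cdkn1b). In Smo-deficient MP 3 of the 7 were higher (median -0.05), each of them past the filter, where 4799 of the 11904 were. In the limma test 2 rose in LSK over MP, Cdkn1a and Rbl2, where 16.4% of all genes did.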

How the data were processed

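Intensity values of 4 arrays were deposited by the authors as 1 table made with RMA, per the submitters' processing notes; no software version is given in the sources used here. RMA as usually run quantile-normalizes arrays, which can remove a change shared by most genes; the arrays' upper quartiles still differed in the deposited table. Per the labels, 20 ng of total RNA was amplified over 2 cycles. The deposited values (12.3 to 44290.5) were read as linear intensity and analysed as log2 with nothing added. The 64 control probe sets were set aside; symbols came from the platform annotation. All 22518 probe sets past the filter were fitted with limma 3.58.1 (R 4.3.3; lmFit and eBayes with trend, two-sided, pool as a block) and adjusted with Benjamini-Hochberg; the fit was tested on simulated data. Genotype was not tested. Alternatives were other normalizations, centrings, filters, probe set rules, a pseudocount of 16, and fits without the block or the trend. The precision is limited by there being 4 arrays. The 41 members and all lists were chosen with earlier results of these data known. Values on all arrays were printed for the genes with the lowest and the highest LSK minus MP of each role, those that passed, those at least 1.5-fold by genotype and those with probe sets of opposite sign of at least 0.3; Orc2, Pole and other genes named beside them were chosen after their values were seen. No column of the table was left unused.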

Additional observations from a re-analysis of the deposited data

How the results depend on the processing

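Direction held for the genotype medians under every alternative run, from -0.18 to -0.14 in LSK and from -0.22 to -0.08 in MP. The MP median was -0.11 after quantile normalization, -0.10 after cyclic loess and -0.08 centred on genes of the members' level range, an alternative chosen after seeing the data, as was the rule of 0.322. The number of genes lower by at least 0.322 in MP was 5 after quantile normalization and 6 after cyclic loess, against 11; in LSK it was 1 after cyclic loess and 1 with the mean over all probe sets of a gene, against 4. The numbers below 0 ran from 36 to 37 of 40 in LSK and from 29 to 38 in MP. In LSK minus MP, 8 genes were lower and 1 higher after quantile normalization, and 8 and 1 after cyclic loess, with Orc2, Orc6, Rfc4, Ccne2 and Pola1 added. By probe set these were 16 and 2 after quantile normalization, and 2 were higher after cyclic loess. With no filter 6 probe sets were lower, and 6 with the filter at the 25th percentile. Without the pool as a block 0 genes and 0 probe sets were lower and 0 probe sets were higher. Without the trend 2 genes and 5 probe sets were lower. With the mean over all probe sets of a gene 1 gene, Pola1, was higher, and Orc1 did not pass (-0.27, adjusted p = 0.0894). Fen1 did not pass without the trend (adjusted p = 0.167), and Mcm10 did not in 6 of the alternatives. Cdc6 passed in all but the fit without the block. The number of calls over the whole array moved with the setting too. By probe set they split into 3395 higher in LSK to 1618 lower, and into 2986 to 2570 after quantile normalization. After cyclic loess the split was 3639 to 2070, with no filter 3819 to 1656, and with the filter at the 25th percentile 3664 to 1610. It was 918 to 140 without the block and 2990 to 1250 without the trend. With the mean over all probe sets of a gene it was 1705 to 949 genes. The causes were not tested. No paired analysis by replicate number was possible because every group has 1 array, with the same number; the pairing by pool is in the test itself. Leaving out a pool leaves 1 pair and no test.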

Other observations

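For a gene with several probe sets past the filter, the brightest one stood for the gene. Among 26 such replication genes, the next brightest probe set had the larger LSK minus MP in size for 19, where this was so for 51.1% of 1492 genes in the same level range. For the genotype difference it was larger for 18 of 26 in LSK (54.0%) and for 14 of 26 in MP (53.4%). Rrm2 had LSK minus MP of -0.17, -0.51 and -0.70 from its brightest to its dimmest probe set, and the genotype difference of Mcm2 in LSK was -0.16 on the brightest and -0.29 on the next. The MCM genes, which were nearly level between the populations, were read on probe sets at 13.36 (Mcm2) to 14.55 (Mcm7) in WT LSK. Whether signal near the upper end of the scale narrows such differences was not tested.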
